A study of Homo sapiens with 28 samples.

Results

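The genes described here are 38 ribosome biogenesis genes, taken by symbol from a fixed list of factors that transcribe ribosomal DNA, process and modify ribosomal RNA, or assemble the small and large ribosomal subunits. Of these, 37 were measured among the 16482 genes of the table of all reads and among the 13029 genes of the table of T>C reads, and BOP1 was not analysed here. The measurements come from SLAMseq of MDA-MB-453, a human breast cancer cell line with luminal features. In SLAMseq, RNA made while cells hold 4-thiouridine (4sU) is alkylated, and its reads then carry T>C mismatches, so that a table of T>C reads is enriched for recently made RNA and a table of all reads is mostly older RNA. All cells received a compound or the solvent for 3 h, with 0.1 mM 4sU for the last 60 min, and were then split by digitonin into a nuclear and a cytoplasmic fraction before 3′ end sequencing of polyadenylated RNA.

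The groups were JQ1-VHL, JQ1, IBET151-VHL, IBET151 and DMSO, the solvent, each in both fractions. JQ1 and IBET151 bind the bromodomains of BET proteins, which help RNA polymerase II to elongate. JQ1-VHL and IBET151-VHL join those binders to a ligand of VHL, the substrate receptor of a ubiquitin ligase, a design used to degrade BET proteins. Doses are not stated in the labels. Each group had 3 libraries, except IBET151, which had 2 in each fraction, for 28 libraries in all. All are of 1 cell line, and nothing states whether replicates were separate cultures. P-values therefore measure the spread between these libraries, which may be technical. That spread is shared between genes of similar level, and in nuclear T>C reads the shared value alone was used.

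Ribosomes are built in the nucleolus, where RNA polymerase I makes a long precursor RNA that is methylated, pseudouridylated, folded and cut while ribosomal proteins join it. The small subunit forms on a particle called the SSU processome, organised around the U3 small nucleolar RNA, and the large subunit on other particles that include the PeBoW complex of PES1, BOP1 and WDR12. Many of these factors are textbook targets of MYC, a transcription factor that binds the E-box CACGTG and that is known to depend on BET proteins in many cancer cells.

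That hexamer, which reads the same on both strands, was looked for in the RefSeq promoters of the set (GRCh38.p14, from 250 bases before to 50 bases after the start of each gene). It was present in 16 of the 32 members with a promoter in the table, or 50%, against 1727 of 15842 protein-coding genes, or 10.9%. In 11 members, or 34.4%, it lay after the start of the gene, against 1.28% of protein-coding genes. A promoter was given for 93 other ribosome biogenesis genes, of which 26 held the hexamer, and for 61 cytosolic ribosomal protein genes, of which 4 held it. The windows of 30 bases below are from members with values in the results, on the strand of the gene, with the hexamer in capitals. They are BYSL at chr6:41921515-41921544 (plus), FBL at chr19:39846356-39846385 (minus), WDR43 at chr2:28894658-28894687 (plus), NOP2 at chr12:6568242-6568271 (minus), PES1 at chr22:30591880-30591909 (minus), NOP14 at chr4:2963374-2963403 (minus), UTP20 at chr12:101280083-101280112 (plus) and DDX21 at chr10:68956604-68956633 (plus).
BYSL: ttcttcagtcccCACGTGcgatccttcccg
FBL: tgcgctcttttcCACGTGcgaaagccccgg
WDR43: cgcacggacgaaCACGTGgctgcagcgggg
NOP2: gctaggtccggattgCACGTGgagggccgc
PES1: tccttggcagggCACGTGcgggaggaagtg
NOP14: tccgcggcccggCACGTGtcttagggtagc
UTP20: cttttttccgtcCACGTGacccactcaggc
DDX21: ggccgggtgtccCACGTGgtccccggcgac
In the first 6 of these the hexamer began between base 4 and base 36 after the start. In UTP20 and DDX21 it lay before the start. A match of letters is a description and does not show that a factor was bound.

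Cytoplasmic libraries held 30647584 to 68475299 reads over genes, of which 82264 to 379401 were T>C reads, and nuclear libraries held 17851589 to 38658448 reads, of which 214725 to 1928012 were T>C reads. The set itself had only 69 to 1563 T>C reads per cytoplasmic library, and 604 to 8806 per nuclear library, so cytoplasmic T>C values are the least precise. The markers of the line ERBB2, FOXA1, GATA3, KRT8, KRT18 and KRT19 were all present. Of the stromal and immune markers, 4 of 6 had a value: COL3A1 and PTPRC stayed at or below 10.4 in every library, CD68 lay between 19.9 and 372, and COL1A1 between 1170 and 6655. Levels are read counts scaled on ERCC spike-in RNA by the authors, and the spike was added per mass of RNA, so fewer cells and less RNA per cell cannot be told apart. That mass includes fly RNA, because Drosophila S2 cells, at 10%, were mixed into every sample before the fractions were split. Nuclear libraries differed most between replicates: replicate 1 had the lowest summed level of the members in every group of 3, and DMSO and JQ1 replicate 3, which form a separate run of library numbers, had T>C shares of 2.25% and 1.94% over all genes, against 5.69% to 8.02% in the other nuclear DMSO and JQ1 libraries.

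In the cytoplasm, most of the set did not pass the test in all reads after 3 h of treatment, while a few members fell with both VHL compounds and RRS1 fell with all 4 compounds. RRS1 brings the 5S ribonucleoprotein into the large subunit precursor. It stood at 1922, 1889 and 2028 in JQ1-VHL cytoplasm, at 2159, 2065 and 1906 with JQ1, at 1779, 2031 and 1991 with IBET151-VHL, and at 1994 and 2172 with IBET151, against 4304, 4410 and 3480 in DMSO cytoplasm. All 11 drug libraries lay below all 3 DMSO libraries. On the log2(value + 1) scale RRS1 fell by 1.05 ± 0.14 (SE) with JQ1-VHL, by 0.99 ± 0.14 with JQ1, by 1.07 ± 0.14 with IBET151-VHL and by 0.96 ± 0.15 with IBET151, which is 2.09-fold with IBET151-VHL. The Benjamini-Hochberg adjusted p-values over all genes in limma were 0.00017, 0.00118, 8e-05 and 0.00444 in that order.

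BYSL, the human counterpart of yeast Enp1 and a late factor of the small subunit, had 622, 715 and 645 with JQ1-VHL, 627, 635 and 604 with JQ1, 656, 547 and 564 with IBET151-VHL, and 728 and 647 with IBET151, against 1107, 1044 and 904 with DMSO. Here too every drug library was below every DMSO library. BYSL fell 1.54-fold with JQ1-VHL (adjusted p = 0.0130, limma), 1.63-fold with JQ1 (0.0148) and 1.73-fold with IBET151-VHL (0.00183). With IBET151 its change was -0.56 on the log2 scale and did not pass (0.114).

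UTP3, the SAS10 protein of the SSU processome, had its lowest levels with the VHL compounds. They were 714, 814 and 746 with JQ1-VHL and 717, 777 and 745 with IBET151-VHL, against 1500, 1655 and 1146 with DMSO, and the groups did not overlap. With JQ1 it had 1234, 1071 and 1038, and with IBET151 1199 and 1174, which overlapped DMSO. UTP3 fell by 0.90 ± 0.16 on the log2 scale with JQ1-VHL (adjusted p = 0.00162, limma) and by 0.92 with IBET151-VHL (0.00084).

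**Figure D1:**
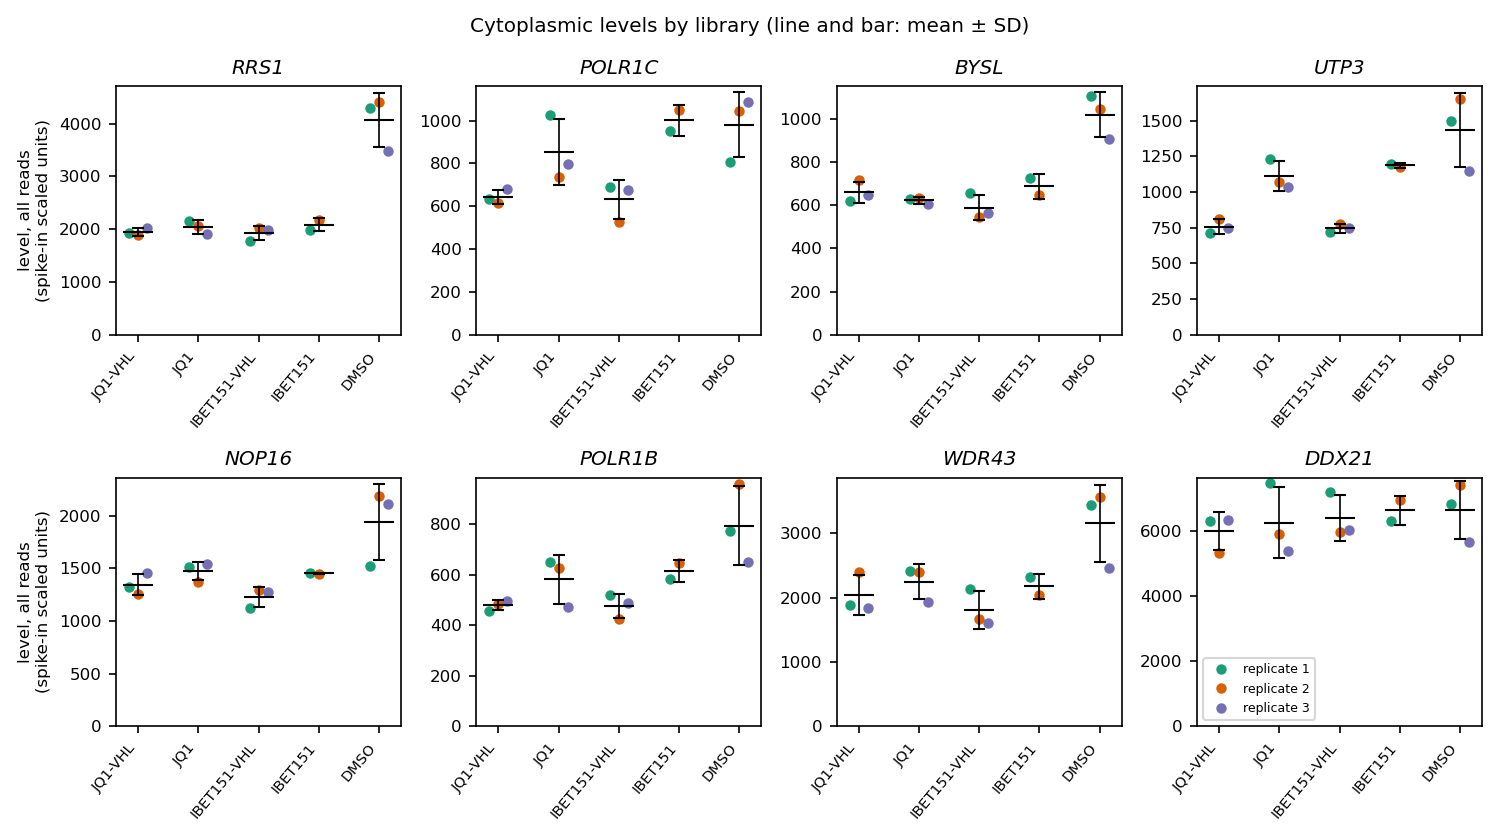
Cytoplasmic levels of RRS1, POLR1C, BYSL, UTP3, NOP16, POLR1B, WDR43 and DDX21 in all reads (spike-in scaled units on the vertical axis), with 1 point per library coloured by replicate number and a line and bar for the mean ± SD of each group (n = 3, and n = 2 for IBET151). RRS1, BYSL and WDR43 lie below DMSO in every drug library, while DDX21 overlaps DMSO in every group.

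Both measured RNA polymerase I subunits that fell did so with the VHL compounds. POLR1B, the second largest subunit, had 457, 484 and 497 with JQ1-VHL and 520, 425 and 486 with IBET151-VHL, against 774, 957 and 648 with DMSO. It fell 1.63-fold (adjusted p = 0.0190, limma) with JQ1-VHL and 1.65-fold (0.0136) with IBET151-VHL. POLR1C, a subunit shared by RNA polymerases I and III, had 633, 617 and 680 with JQ1-VHL and 691, 528 and 676 with IBET151-VHL, against 807, 1046 and 1087 with DMSO. It fell 1.51-fold (0.0434) and 1.55-fold (0.0265) in that order. POLR1B and POLR1C had separate values in both VHL groups and DMSO. With JQ1 POLR1B had 650, 625 and 471 and POLR1C 1026, 736 and 797, and with IBET151 they had 584 and 646, and 949 and 1051. Neither passed with JQ1 or IBET151, and POLR1A, the largest subunit, passed with no compound.

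Among the remaining members, WDR43, a UTP-A protein of the SSU processome, had 1881, 2393 and 1833 with JQ1-VHL, 2411, 2394 and 1930 with JQ1, 2140, 1667 and 1603 with IBET151-VHL, and 2312 and 2039 with IBET151, against 3438, 3559 and 2466 with DMSO. Its 11 drug libraries were all below DMSO, but it passed only with JQ1-VHL (1.54-fold lower, adjusted p = 0.0381, limma) and IBET151-VHL (1.74-fold lower, 0.00693). NOP16, a large subunit factor, had 1319, 1262 and 1461 with JQ1-VHL, 1509, 1375 and 1538 with JQ1, 1120, 1295 and 1275 with IBET151-VHL, and 1458 and 1450 with IBET151, against 1523, 2189 and 2112 with DMSO. It fell 1.42-fold with JQ1-VHL (0.0486) and 1.56-fold with IBET151-VHL (0.0110). UTP15, another UTP-A protein, fell 1.78-fold (0.0229) and 2.08-fold (0.00378) with the same 2 compounds. NOP2, a methyltransferase of the large subunit RNA, fell with IBET151-VHL, at 554, 460 and 526 against 882, 867 and 659 with DMSO (1.55-fold, 0.0285).

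The abundant nucleolar proteins did not pass with any compound. NPM1, or nucleophosmin, had 37964, 37851 and 44308 with JQ1-VHL, 46800, 39683 and 31240 with JQ1, 43555, 40647 and 40290 with IBET151-VHL, and 45555 and 45565 with IBET151, against 36656, 44771 and 31478 with DMSO. NCL, or nucleolin, ranged over 27468 to 34589 with JQ1-VHL, 22690 to 45681 with JQ1, 25882 to 46782 with IBET151-VHL, and 31523 to 37918 with IBET151, against 22077 to 44557 with DMSO. FBL, or fibrillarin, the 2′-O-methyltransferase of box C/D particles, had 18621, 20410 and 19336 with JQ1-VHL, 20633, 21619 and 15061 with JQ1, 22165, 20598 and 20473 with IBET151-VHL, and 21334 and 20634 with IBET151, against 26662, 23512 and 16902 with DMSO. The drug and DMSO groups overlapped in these 3 genes, except that both IBET151 libraries of NPM1 lay above the 3 DMSO libraries. DDX21, an RNA helicase of the nucleolus, had 6328, 5336 and 6342 with JQ1-VHL against 6848, 7423 and 5678 with DMSO, and its log2 change lay between -0.14 and 0.01 over the 4 compounds. NOP56, a core protein of box C/D particles, and DKC1, the pseudouridine synthase dyskerin, had changes between -0.14 and 0.08. The U3 binding protein RRP9 lay between -0.22 and 0.06, and UTP20 and PES1 lay between -0.41 and -0.21 without passing.

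In all, 8 of 37 members fell with JQ1-VHL, against 12.5% of the 12470 genes tested, 2 fell with JQ1 against 4%, 9 fell with IBET151-VHL against 15.4%, and 1 fell with IBET151 against 1.62%. No member was higher, and of all genes 0.417%, 0.818%, 0.465% and 0.898% were in the same order of compounds. The median log2 changes of the members were -0.29, -0.29, -0.23 and -0.10, and those of all genes -0.17, -0.13, -0.15 and 0.0023. By role, the VHL compounds JQ1-VHL and IBET151-VHL each lowered 2 of 3 polymerase I subunits, 3 of 13 SSU processome factors and 1 of 5 late small subunit factors. They lowered 2 and 3 of 6 large subunit factors outside PeBoW. Neither lowered any of the 3 box C/D proteins, of the chaperones NCL, NPM1 and NOLC1, or of the PeBoW proteins PES1 and WDR12. Median-ratio scaling of the same reads gave 4 lower and 1 higher with JQ1-VHL, and 7 lower and 2 higher with IBET151-VHL. The counts for JQ1-VHL were 3, 4 and 2 without its replicates 1, 2 and 3 and 3 without DMSO replicate 2. For JQ1 the count was 1 without its replicate 2 or 3, and for IBET151 it was 0 without its replicate 1 and 2 without DMSO replicate 3.

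**Figure D2:**
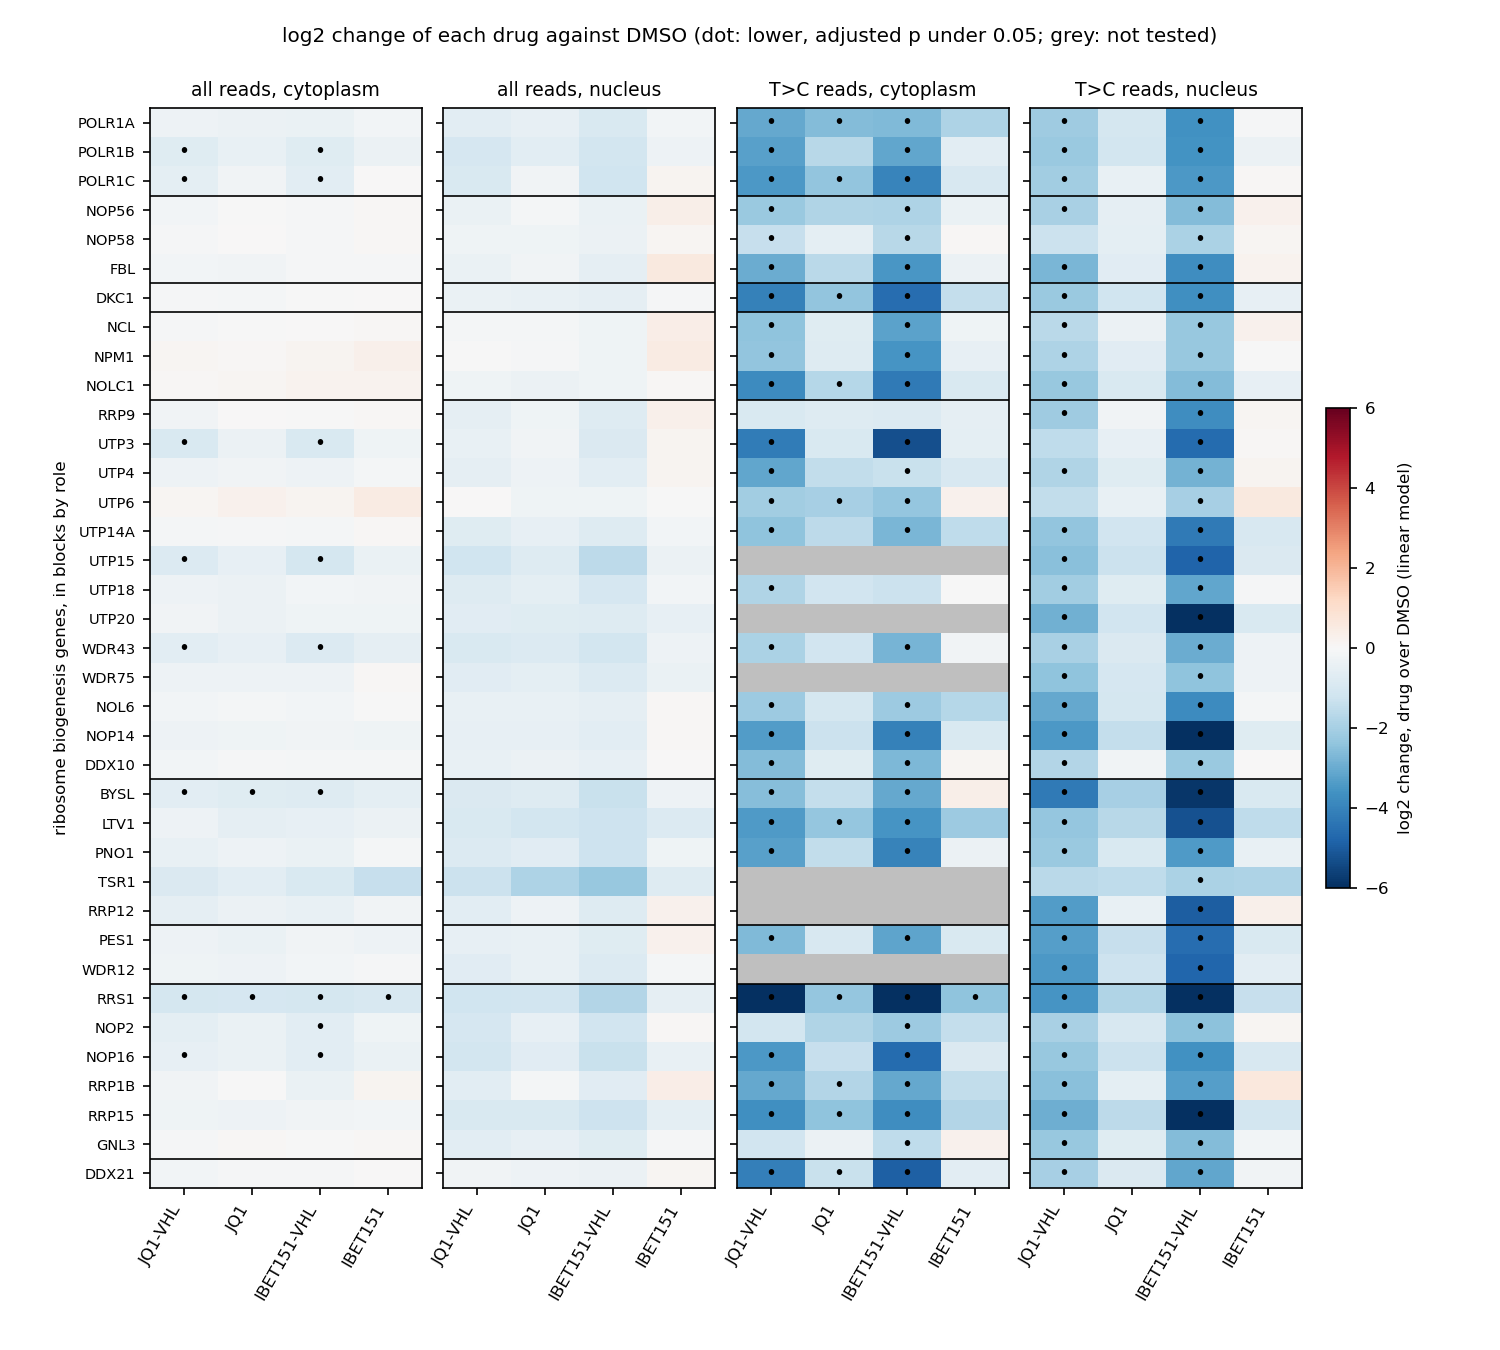
Log2 changes of the 37 members against DMSO, with members down the side in blocks by role and the 4 compounds across for each table and fraction. Colour runs from -6 (lower) to 6 (higher), with larger changes shown at the end of the scale, a dot marks a member that was lower at an adjusted p under 0.05, and grey marks a member that was not tested. The cytoplasmic all-read columns carry 8, 2, 9 and 1 dots for JQ1-VHL, JQ1, IBET151-VHL and IBET151. The nuclear T>C columns carry 33, 0, 37 and 0.

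In T>C reads of the cytoplasm, nearly the whole set fell with the VHL compounds. Of the 31 members with a value of at least 5 in 2 or more libraries, 28 fell with JQ1-VHL, where 82.8% of 6300 genes fell, and 29 fell with IBET151-VHL, where 88.3% fell. With JQ1 10 fell, against 20.1%, and with IBET151 only RRS1, against 6.76%. Of the members tested, POLR1A, RRP1B, NOP2 and UTP14A reached 5 in DMSO libraries only, so the minimum itself favoured a decrease in them. No member was higher, and of all genes 0.19%, 0.492%, 0.159% and 0.524% were with JQ1-VHL, JQ1, IBET151-VHL and IBET151. Median log2 changes of the members were -2.96 with JQ1-VHL, -1.46 with JQ1, -3.11 with IBET151-VHL and -0.65 with IBET151, beside -2.42, -0.97, -2.89 and -0.60 over all genes. With members at 0 reads set to their bounds the IBET151-VHL median was -3.45 and the others did not change.

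RRS1 had no T>C read in any VHL library of the cytoplasm. Its T>C levels were 11.1, 27.8 and 19.4 with JQ1 and 13.3 and 21.9 with IBET151, against 93.4, 107 and 86.4 with DMSO. These DMSO levels came from 116, 127 and 167 reads. Taking 3 reads over the group as the limit that a count of 0 allows, RRS1 was at least 124-fold lower with JQ1-VHL and at least 135-fold lower with IBET151-VHL. With JQ1 it fell by 2.32 on the log2 scale (adjusted p = 0.00361, limma) and with IBET151 by 2.41 ± 0.59 (0.0118). Such limits and intervals cover counting error only, since the reads carry no molecular identifiers.

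DDX21 had the smallest p in both VHL groups after RRS1. It had T>C levels of 6.70, 6.34 and 2.97 with JQ1-VHL, 46.0, 40.5 and 33.3 with JQ1, 4.71, 0.864 and 2.98 with IBET151-VHL, and 61.8 and 71.1 with IBET151, against 98.2, 130 and 85.4 with DMSO. All drug libraries were below all DMSO libraries, the VHL libraries lowest. DDX21 fell 17.1-fold with JQ1-VHL (adjusted p = 7.74e-08, limma), 29.8-fold with IBET151-VHL (7.79e-10) and 2.56-fold with JQ1 (0.0398). Its all-read level at the same time overlapped DMSO.

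NPM1, which did not pass in all reads, had T>C levels of 17.4, 30.8 and 39.4 with JQ1-VHL, 115, 101 and 55.0 with JQ1, 14.8, 9.51 and 11.9 with IBET151-VHL, and 108 and 100 with IBET151, against 137, 190 and 122 with DMSO. It fell 5.15-fold with JQ1-VHL (adjusted p = 1.03e-05, limma) and 11.5-fold with IBET151-VHL (1.26e-08). NCL had 27.5, 22.7 and 37.9 with JQ1-VHL, 95.4, 104 and 82.6 with JQ1, 16.1, 12.1 and 20.9 with IBET151-VHL, and 127 and 138 with IBET151, against 189, 167 and 120 with DMSO. It fell 5.29-fold (2.97e-06) and 9.24-fold (1.36e-08) with the VHL compounds. In NPM1 and NCL the VHL libraries were all below DMSO by a wide margin. Fibrillarin fell by 2.96 with JQ1-VHL and by 3.51 with IBET151-VHL on the log2 scale, at 4.02, 0.906 and 6.68 with JQ1-VHL and 2.69, 0.864 and 2.39 with IBET151-VHL, against 49.1, 46.4 and 13.5 with DMSO.

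Other members were near the floor of these libraries. UTP3 had 1 T>C read over the 3 IBET151-VHL libraries against 203 over DMSO, a ratio of scaled levels of 0.00497 (95% counting interval 0.000125 to 0.0280). POLR1B had 2 reads with JQ1-VHL and 3 with IBET151-VHL against 66 with DMSO, ratios of 0.0335 (0.00398 to 0.126) and 0.0459 (0.00922 to 0.140). BYSL had 2 reads with JQ1-VHL and 0 with IBET151-VHL against 38 with DMSO, a ratio of 0.0582 (0.00680 to 0.225) and a fold of at least 12.6. With IBET151-VHL NOP16 was at least 35.3-fold lower, NOP14, an SSU processome factor, at least 23.5-fold, and PNO1, a late small subunit factor, at least 21.8-fold. PES1 had 1 read with IBET151-VHL against 45 (ratio 0.0224, 0.000556 to 0.131). In total 5 tested members had no T>C read with JQ1-VHL and 8 had none with IBET151-VHL. RRP9 passed with no compound, and UTP20, UTP15, WDR12, WDR75, RRP12 and TSR1 were under the minimum and not tested.

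With JQ1 the 10 members that fell were POLR1A, DKC1, RRS1, RRP15, LTV1, POLR1C, UTP6, RRP1B, DDX21 and NOLC1. Among these, POLR1A and RRP1B reached the minimum in DMSO libraries only. Dyskerin had 4.26, 15.1 and 9.35 with JQ1, against 42.7, 67.5 and 40.9 with DMSO, and fell by 2.39 (adjusted p = 0.00361, limma). RRP15, a large subunit factor, fell by 2.41 (0.0162), and LTV1, an export adaptor of the small subunit, by 2.32 (0.0193). This list held 3 members without DMSO replicate 2, 6 and 4 without JQ1 replicates 2 and 3, and 0 under median-ratio scaling. The IBET151 call of RRS1 was lost without DMSO replicate 2 and without IBET151 replicate 1.

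The share of T>C reads gave nearly the same split. The spike-in scaling cancels in the share over the members together. By gene it does not cancel fully at low T>C levels, since 1 was added to each scaled value. By gene the same members were tested, so the minimum favoured a decrease in POLR1A, RRP1B, NOP2 and UTP14A here too. Over the members together, T>C values were 0.0556%, 0.0595% and 0.0781% of all-read values in cytoplasm with JQ1-VHL, 0.212%, 0.255% and 0.231% with JQ1, 0.0335%, 0.0366% and 0.0416% with IBET151-VHL, and 0.292% and 0.341% with IBET151, against 0.478%, 0.553% and 0.543% with DMSO. The 5 groups did not overlap, but those over all genes did not overlap either. Over all genes the shares were 0.262% to 0.302% with JQ1-VHL and 0.235% to 0.260% with IBET151-VHL. They were 0.526% to 0.568% with JQ1, 0.576% to 0.655% with IBET151 and 0.747% to 0.818% with DMSO. By gene, the share fell in 26 of 31 members with JQ1-VHL (76.2% of 6299 genes), 5 with JQ1 (7.79%) and 28 with IBET151-VHL (82.2%). It passed in 0 members with IBET151 (3.73% of genes) in limma, where 8 had an unadjusted p under 0.05. The JQ1 count was 2 without JQ1 replicate 1 or without any 1 of the 3 DMSO replicates, and 3 without JQ1 replicate 3. The members also made up a smaller part of all T>C values: 0.118% to 0.152% with JQ1-VHL, 0.237% to 0.275% with JQ1, 0.0839% to 0.100% with IBET151-VHL, and 0.296% to 0.317% with IBET151, against 0.412% to 0.429% with DMSO. Their part of all reads was 0.581% to 0.652% with JQ1-VHL and 0.572% to 0.702% with IBET151-VHL, against 0.566% to 0.719% with DMSO.

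**Figure D3:**
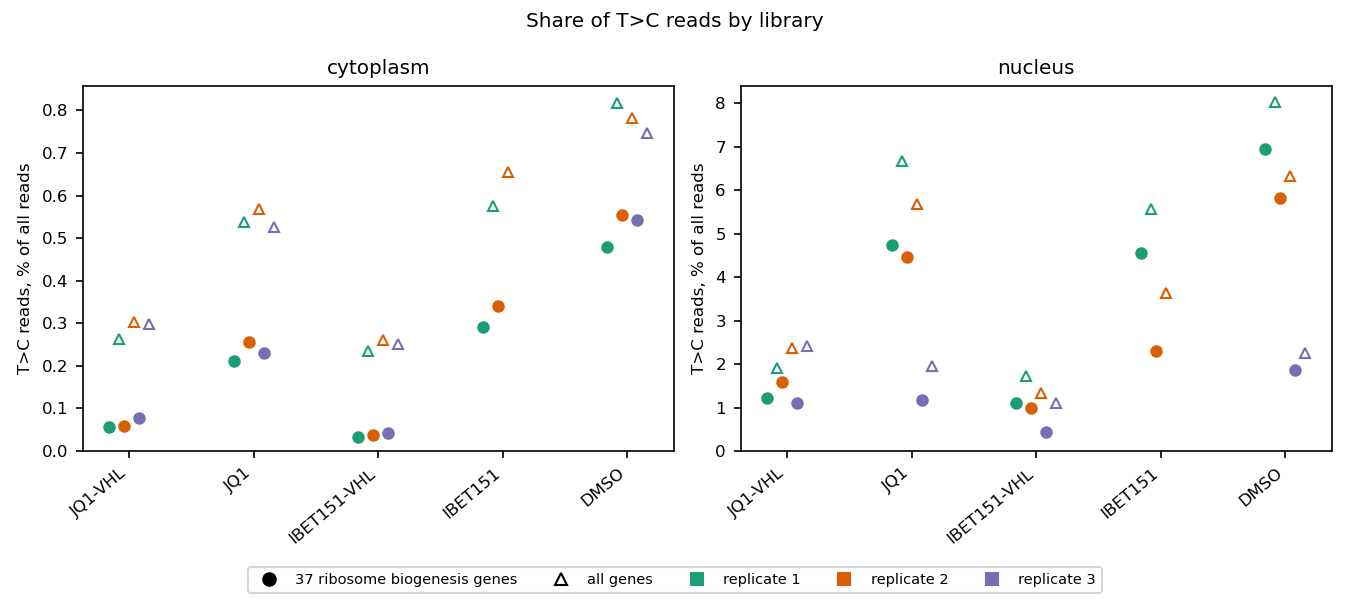
Share of T>C reads in all reads (percent, vertical axis) per library, over the 37 members together (filled points) and over all genes (open triangles), coloured by replicate number, for the cytoplasm and the nucleus. In the cytoplasm the member shares of the 5 groups do not overlap, with IBET151-VHL lowest at 0.0335% to 0.0416% and DMSO highest at 0.478% to 0.553%. The shares over all genes do not overlap there either. In the nucleus JQ1 and DMSO replicate 3 sit at 1.18% and 1.87%, below their other replicates.

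In nuclear RNA, all reads gave no member that passed with any compound. RRS1 had 632, 2285 and 3436 in JQ1-VHL nuclei, 673, 1649 and 4870 with JQ1, 383, 1751 and 2488 with IBET151-VHL, and 1964 and 3778 with IBET151, against 1470, 4182 and 10016 in DMSO nuclei. Its groups overlapped, and its changes of -1.21, -1.17, -1.73 and -0.54 did not pass. NPM1 had 11651, 43478 and 57916 with JQ1-VHL and 8937, 39433 and 53364 with IBET151-VHL, against 10523, 39190 and 76355 with DMSO, with wide overlap. The background was 1.07% of 14417 genes lower with JQ1-VHL, 0.0486% with JQ1, 3.66% with IBET151-VHL and 0.00694% with IBET151. Among the members, 0, 1, 3 and 0 had an unadjusted p under 0.05 in limma, and edgeR passed 0, 0, 1 and 0 in the same order. Member medians were -0.65, -0.44, -0.78 and -0.016, near those of all genes at -0.48, -0.43, -0.71 and 0.054.

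Replicate numbers moved together in these libraries, and with the replicate as a block the counts in limma were 11 lower with JQ1-VHL, 4 with JQ1 and 24 with IBET151-VHL. The shares of all genes given above come from the fit without a block. These counts cannot be set beside them and do not set the members apart from other genes. The pairing comes from the replicate numbers of the labels and the check given with the processing. BYSL, for example, had 311 with JQ1-VHL, 298 with JQ1 and 177 with IBET151-VHL in replicate 1, against 492 with DMSO. In replicate 3 it had 1080, 2070 and 994 with the same compounds, against 2704 with DMSO. POLR1B had 384, 1070 and 1328 with JQ1-VHL and 348, 950 and 1444 with IBET151-VHL, against 1004, 1778 and 2532 with DMSO, lower at each replicate number. Replicate 3 of the VHL compounds and of DMSO were not in the same run of library numbers.

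The nuclear T>C reads gave the deepest view of newly made RNA, and there the VHL compounds lowered the set at large. With JQ1-VHL 33 of 37 members fell, where 60.5% of 12059 genes fell, and with IBET151-VHL all 37 tested members fell, where 83.9% fell. TSR1 reached the minimum in DMSO libraries only, so the minimum itself favoured a decrease in it. With JQ1 and with IBET151 no member passed in limma, where 2.29% and 0.987% of genes were lower. At an unadjusted p under 0.05 there were 4 members with JQ1 and 0 with IBET151, and edgeR passed 0 with each. The T>C share over the members together was 1.21%, 1.59% and 1.10% with JQ1-VHL, 4.74%, 4.47% and 1.18% with JQ1, 1.11%, 0.991% and 0.439% with IBET151-VHL, and 4.56% and 2.31% with IBET151, against 6.94%, 5.83% and 1.87% with DMSO. JQ1 replicate 3 lay within the range of the VHL libraries, and DMSO replicate 3 lay above all 6 of them but below the other JQ1 and both IBET151 libraries. Member medians were -2.25, -0.94, -3.58 and -0.23 with JQ1-VHL, JQ1, IBET151-VHL and IBET151, beside -1.92, -0.67, -3.12 and -0.069 over all genes.

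RRS1 had nuclear T>C levels of 9.38, 32.2 and 37.8 with JQ1-VHL, 27.5, 125 and 133 with JQ1, 0, 5.19 and 0 with IBET151-VHL, and 105 and 106 with IBET151, against 128, 341 and 477 with DMSO. The JQ1-VHL and IBET151-VHL libraries lay below all DMSO libraries. It fell 11.6-fold with JQ1-VHL (adjusted p = 0.000109, limma). With IBET151-VHL it had 3 reads against 580 with DMSO, a ratio of 0.00484 (95% counting interval 0.000996 to 0.0142). Its change of -1.82 with JQ1 did not pass (0.237).

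BYSL had 2.01, 1.89 and 2.22 with JQ1-VHL, 7.63, 28 and 11.2 with JQ1, none in any IBET151-VHL library, and 30.2 and 29.9 with IBET151, against 27.8, 84.9 and 76.6 with DMSO. It fell 19.0-fold with JQ1-VHL (adjusted p = 5.85e-05, limma) and was at least 42.0-fold lower with IBET151-VHL, where 0 reads stood against 118. NOP14 had 3 reads with IBET151-VHL against 360 (ratio 0.00780, 0.00160 to 0.0230). UTP20, a large scaffold of the SSU processome, had 2 against 318 (0.00589, 0.000710 to 0.0214). RRP15 had 10 reads with IBET151-VHL against 542 with DMSO, and its lowest IBET151-VHL library was at 0. It fell by 6.20 on the log2 scale with IBET151-VHL (5.66e-14), a size that depends on the pseudocount, and by 2.94 with JQ1-VHL.

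NPM1, NCL and NOP56 had some of the smaller log2 changes in nuclear T>C reads. NPM1 had 81.1, 337 and 400 with JQ1-VHL, 355, 711 and 513 with JQ1, 110, 247 and 177 with IBET151-VHL, and 787 and 792 with IBET151, against 543, 1228 and 804 with DMSO. Its changes were -1.87 with JQ1-VHL (adjusted p = 0.0139, limma) and -2.26 with IBET151-VHL (0.00127). NCL changed by -1.61 (0.0319) and -2.28, and NOP56 by -1.96 and -2.58. With IBET151-VHL NPM1, NCL and NOP56 changed less than fibrillarin at -3.71, dyskerin at -3.69, POLR1B at -3.58, RRP9 at -3.71 and DDX21 at -3.10. RRP9 had only 4 nuclear T>C reads with IBET151-VHL. Pooled all-read levels in DMSO nuclei were 33879 for NPM1, 38438 for NCL, 18432 for NOP56, 17262 for fibrillarin and 23959 for dyskerin. A relation of level to change was not tested. The difference between members was not tested.

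By role, the median log2 change with IBET151-VHL was -4.93 for late small subunit factors, -4.67 for PeBoW proteins, -3.71 for SSU processome factors, -3.58 for polymerase I subunits, -3.47 for the remaining large subunit factors, -2.58 for box C/D proteins and -2.28 for the chaperones. The PeBoW proteins measured, PES1 and WDR12, had 9 and 6 nuclear T>C reads with IBET151-VHL. The late small subunit factors BYSL, TSR1, RRP12, LTV1 and PNO1 had 0, 2, 5, 14 and 14. The medians of these roles thus rest on few reads and on the pseudocount. With JQ1-VHL the PeBoW median was -3.38 and the chaperone median -1.87. UTP3, UTP6, NOP58 and TSR1 were the 4 members that did not pass with JQ1-VHL. Median-ratio scaling, which takes out most of the shift that all genes share, left 2 members lower with JQ1-VHL and gave 10 lower and 3 higher with IBET151-VHL, and under it NPM1 at 0.74, NCL at 0.73 and NOP56 at 0.41 turned to higher. Without DMSO replicate 2 only 11 members passed with JQ1-VHL, and 19 passed without JQ1-VHL replicate 1.

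The difference in T>C effect between nucleus and cytoplasm was tested by an interaction term over all 28 libraries. For JQ1-VHL 2 members passed, 1 in each direction, where 4.96% of 12067 genes were lower and 0.729% higher. RRS1 had an interaction of 3.05 on the log2 scale (adjusted p = 0.0438, limma), so that its change was more negative in the cytoplasm, where it had no reads with JQ1-VHL and its fitted change depends on the pseudocount. RRP12, an export factor of both subunits, had -3.68 (0.0166). For IBET151-VHL 7 members were lower in the nuclear effect (23.7% of genes), namely RRP12 at -5.68 (4.27e-05), UTP15 at -3.99 (0.00212), UTP20 at -3.67 (0.00422), WDR12 at -3.48 (0.0141), RRP9 at -2.90 (0.0322), BYSL at -2.78 (0.0359) and NOP14 at -2.72 (0.0314). RRP12, UTP15, WDR12 and UTP20 were under the minimum of the cytoplasmic fit and had 0, 6, 11 and 24 cytoplasmic T>C reads over the 3 DMSO libraries, so a decrease of the nuclear size was not detectable there. BYSL and NOP14 had 0 cytoplasmic T>C reads with IBET151-VHL, against 38 and 71 with DMSO, and BYSL had 0 in the nucleus too, so that their interactions depend on the pseudocount. RRP9 had 13 cytoplasmic reads with IBET151-VHL, against 21 with DMSO, but only 4 nuclear reads, against 92 with DMSO. Nuclear T>C reads with IBET151-VHL were also few in RRP12, UTP15, UTP20, WDR12 and NOP14, at 5, 4, 2, 6 and 3. The sizes of all 7 interactions with IBET151-VHL thus depend on the pseudocount. By edgeR 0 members passed for JQ1-VHL and 1 for IBET151-VHL, and with a pseudocount of 5 there were 4 and 19, all lower.

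For JQ1 and IBET151 no member passed this interaction (0.191% and 0.0994% of genes passed). In all reads no member passed it with any compound, where at most 0.00692% of genes passed. In these 6 tests no member had an unadjusted p under 0.05 in limma, and edgeR passed 0. Median-ratio scaling gave 1 higher with JQ1-VHL and 2 higher and 1 lower with IBET151-VHL, and under it NOP14 at 0.61 and BYSL at 0.32 turned to a less negative nuclear effect. For JQ1-VHL 0 members passed without its Cyto replicate 2, 5 without its Nuc replicate 1, and 1 without each of the other libraries of these groups except DMSO Nuc replicate 3. The IBET151-VHL count was 3 without DMSO Nuc replicate 2 or IBET151-VHL Cyto replicate 2, and 4 without IBET151-VHL Cyto replicate 3.

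**Figure D4:**
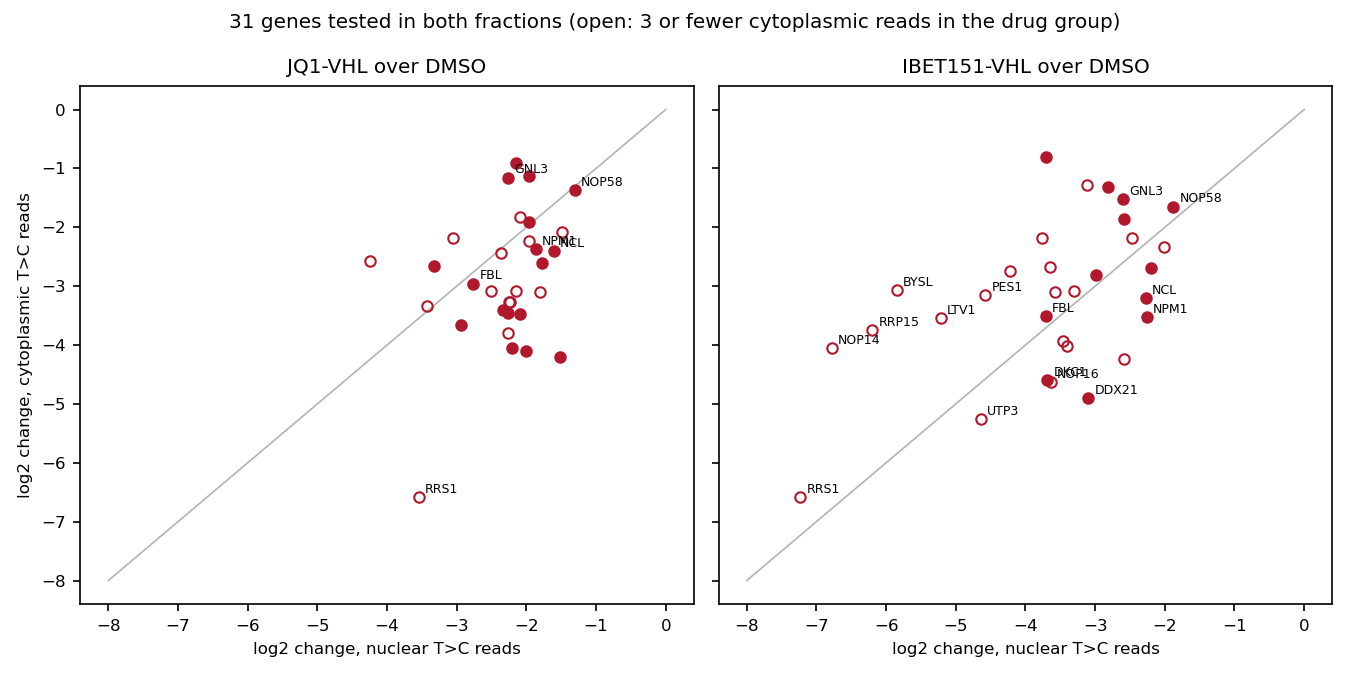
Log2 T>C change against DMSO in the nucleus (horizontal) and in the cytoplasm (vertical) for the 31 members tested in both, with a panel for each VHL compound and the line of equal change. Open points mark members with 3 or fewer cytoplasmic T>C reads over the drug group, whose vertical position depends on the pseudocount. RRS1, at 0 cytoplasmic reads with both compounds, is the only member with a positive interaction that passed, at 3.05 with JQ1-VHL.

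In DMSO cells alone, members differed widely in how their RNA was split between the fractions. Levels are per mass of RNA in each fraction, and in all reads 6 members were higher in DMSO nuclei than in DMSO cytoplasm, where 47.9% of 14458 genes were higher and 0.539% lower. These were UTP20 (2.50 ± 0.49, SE, log2), WDR75 and NOP2 (1.70 each), RRP12 (1.68), POLR1A (1.64) and NOL6 (1.38), with adjusted p-values of 5.46e-05 to 0.0322 in limma. NPM1 at -0.24, FBL at -0.44, RRS1 at -0.03 and NCL at 0.27 did not pass, and the median of the members was 0.76 against 1.26 for all genes. With the replicate as a block 11 members were higher, and without DMSO Nuc replicate 1 the count was 14. Under median-ratio scaling 5 were higher and 16 lower.

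In T>C reads all 37 members were higher in DMSO nuclei, where 93.6% of genes were higher, while median-ratio scaling gave 5 higher and 1 lower. The increase was 6.67 on the log2 scale for RRP12, 6.31 for NOP56, 6.08 for GNL3 and 5.21 for NOP58, and 1.52 for RRS1 (adjusted p = 0.0315, limma). RRP12, NOP56, GNL3 and NOP58 had 0, 25, 22 and 85 cytoplasmic T>C reads over the DMSO libraries, so the first increases are imprecise. NOP56, GNL3 and NOP58 are known to host small nucleolar RNAs in their introns. Hosts were not listed in full or compared with other members, so a link to hosting was not tested. Under median-ratio scaling RRS1 was lower in the nucleus at -1.76, as were NPM1 at -0.85, NCL at -0.81, DDX21 at -0.80, FBL at -0.44, BYSL at -0.32 and RRP9 at -0.11. In the nucleus the T>C share of DMSO cells ran from 1.74% in fibrillarin, 2.33% in NCL and 3.12% in NPM1 to 11.4% in POLR1C, 13.0% in POLR1B and 13.5% in TSR1, which had only 14 T>C reads over the 3 DMSO nuclear libraries, with a median of 7.11%. In the cytoplasm the share was highest in UTP3 at 3.33%, RRS1 at 2.36% and POLR1C at 2.23%, with a median of 0.577%.

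Members with a larger T>C share in DMSO nuclei tended to be those whose cytoplasmic level was lower after 3 h. Over the 37 genes the nuclear T>C share in DMSO and the cytoplasmic all-read change had Pearson r of -0.54 and Spearman rho of -0.51 with JQ1-VHL, r of -0.39 and rho of -0.42 with JQ1, r of -0.57 and rho of -0.56 with IBET151-VHL, and r of -0.43 and rho of -0.40 with IBET151. These are descriptions across genes, which are not independent replicates, and the 4 values share the same DMSO libraries. The same relation over all genes was not computed, so it is not shown to be particular to the set. RRS1, with a nuclear share of 7.21%, close to the median, had one of the largest changes. The same values were split by the E-box hexamer: 2 of 16 with it and 5 of 16 without it fell in all cytoplasmic reads with JQ1-VHL, with medians of -0.29 and -0.28. With IBET151-VHL these were 3 and 5, with medians of -0.22 and -0.24. In nuclear T>C reads 16 and 13 fell with JQ1-VHL, with medians of -2.30 and -2.12. With IBET151-VHL 16 and 16 fell there, with medians of -3.71 and -3.52. A difference between members with and without the hexamer was not tested.

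**Figure D5:**
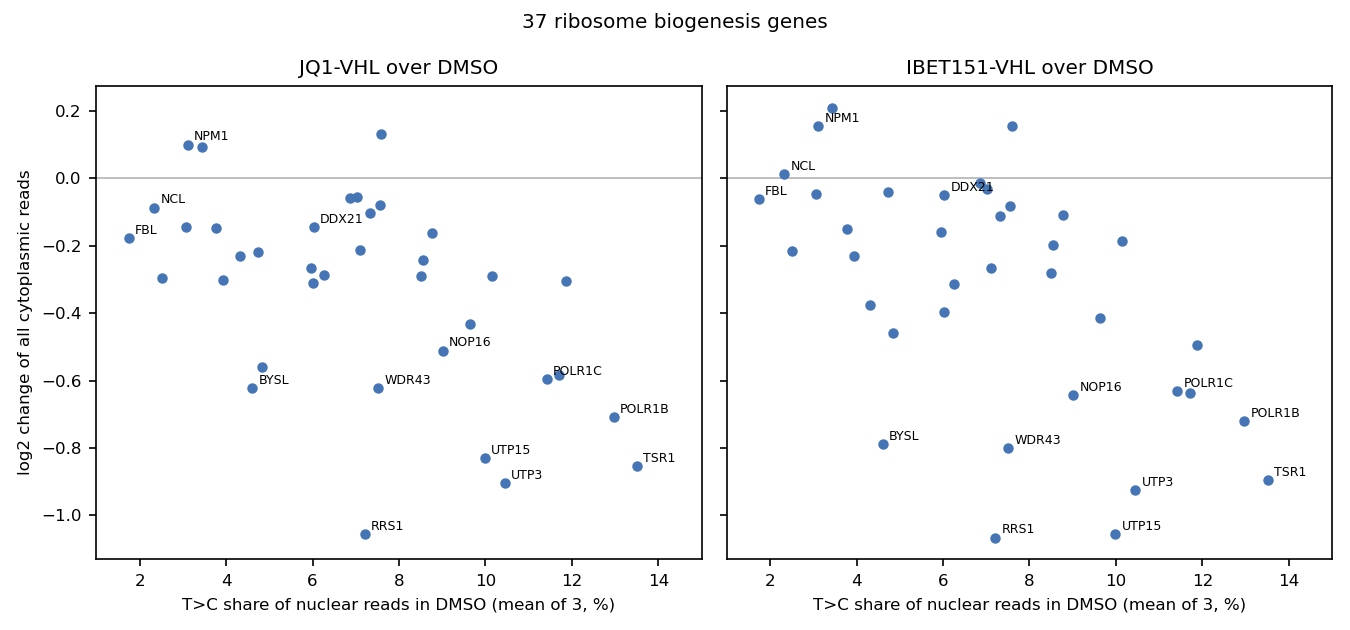
Share of T>C reads in DMSO nuclei (percent, mean of 3 libraries, horizontal) against the cytoplasmic all-read log2 change from DMSO (vertical) for 37 members, with a panel for each VHL compound. Fibrillarin at 1.74% and NCL at 2.33% lie at the left with changes near 0, and POLR1B at 13.0% lies at the right at about -0.7. RRS1 lies below the cloud at 7.21%.

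The compounds were also set against each other, in 4 pairs in the cytoplasm and 2 in the nucleus, all at 3 h and with p-values adjusted over all genes in each pair. In cytoplasmic all reads no member passed between JQ1-VHL and JQ1, where 4.18% of genes were lower with JQ1-VHL, 2 had an unadjusted p under 0.05, edgeR passed 0, and 1 (lower) passed with the replicate as a block. The difference was -0.07 in RRS1 (95% interval -0.37 to 0.23), 0.08 in BYSL (-0.24 to 0.41) and -0.27 in POLR1B (-0.66 to 0.13). Between IBET151-VHL and IBET151 UTP3 alone passed, at -0.67 (-1.05 to -0.29, adjusted p = 0.0311, limma), where 7.87% of genes were lower, and it passed in none of the fits that left out 1 of the 5 libraries of these groups. RRS1 differed there by -0.11 (-0.44 to 0.22). No member passed between JQ1-VHL and IBET151-VHL (0.016% of genes), where RRS1 differed by 0.01 (-0.29 to 0.31), or between JQ1 and IBET151 (0% of genes), where it differed by -0.03 (-0.36 to 0.30). In these 2 pairs no member had an unadjusted p under 0.05 in limma, and edgeR passed 0.

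In cytoplasmic T>C reads members passed between each VHL compound and its parent, in both pairs at a share near that of all genes. Of these members 14 of 31 members were lower with JQ1-VHL than with JQ1 (46.5% of genes), among them DDX21 at -2.74 (95% interval -3.70 to -1.78), NCL at -1.67, NPM1 at -1.60 and dyskerin at -1.67. The count was 7 without JQ1 replicate 2. In the same reads 22 were lower with IBET151-VHL than with IBET151 (69.1% of genes), among them DDX21 at -4.27, NPM1 at -3.02, NCL at -2.97, fibrillarin at -3.14 and dyskerin at -3.16. RRS1, at 0 reads in both VHL groups, passed in both pairs. No member passed between JQ1-VHL and IBET151-VHL (3.05% of genes), with NPM1 at 1.15 (0.35 to 1.96, adjusted p = 0.106), except 1 without JQ1-VHL replicate 1, or between JQ1 and IBET151 (0%). At an unadjusted p under 0.05 there were 3 and 2 members in limma, and edgeR passed 0 in each pair.

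In the nucleus all reads gave no member in either pair of VHL compound and parent, where 0.166% and 0.506% of genes were lower, and none had an unadjusted p under 0.05 in limma or passed in edgeR. In nuclear T>C reads 2 members were lower with JQ1-VHL than with JQ1 (13% of genes). These were RRP12 at -2.90 (-4.49 to -1.32, adjusted p = 0.0101, limma) and fibrillarin at -2.09 (-3.50 to -0.69, 0.0342). The count was 0 without JQ1 replicate 2, 1 without JQ1-VHL replicate 1 and 6 without JQ1-VHL replicate 2. It was 0 under median-ratio scaling, 13 with the replicate as a block and 31 with the run as a block. With IBET151-VHL 36 of 37 were lower than with IBET151 (81.4% of genes), and TSR1, with 2 T>C reads against 1 from fewer libraries, did not pass. Median-ratio scaling gave 6 lower and 1 higher in that pair, and under it NPM1 at 0.79, NCL at 0.46, NOP56 at 0.18 and DDX21 at 0.13 turned to higher with IBET151-VHL.

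Other genes of the pathway, on a list made for this work, were counted in the same fits. Of 102 other ribosome biogenesis genes tested in cytoplasmic all reads, 17 fell with JQ1-VHL, 4 with JQ1, 20 with IBET151-VHL and 2 with IBET151, with medians of -0.30, -0.27, -0.32 and -0.13. In nuclear T>C reads 80 of 101 fell with JQ1-VHL and 96 with IBET151-VHL, and none with JQ1 or IBET151 in limma, where 11 and 2 had an unadjusted p under 0.05. Of 77 cytosolic ribosomal protein genes none fell in cytoplasmic all reads in limma, where at most 1 per compound had an unadjusted p under 0.05, with medians of 0.049, 0.013, 0.092 and 0.19, while in cytoplasmic T>C reads 62 of 73 fell with JQ1-VHL, 4 with JQ1, 66 with IBET151-VHL and 1 with IBET151. MYC itself had cytoplasmic levels of 10.7, 6.34 and 4.46 with JQ1-VHL, 82.6, 50 and 82.2 with JQ1, 7.40, 9.51 and 13.1 with IBET151-VHL, and 44.7 and 113 with IBET151, against 70.8, 202 and 239 with DMSO. It fell by 4.29 on the log2 scale with JQ1-VHL (adjusted p = 5.33e-05, limma) and by 3.82 with IBET151-VHL (6.51e-05). Its changes of -1.10 with JQ1 (0.273) and -1.07 with IBET151 (0.439) did not pass. Whether the level of MYC has a part in the changes of the ribosome biogenesis genes was not tested.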

How the data were processed

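SLAMseq libraries of the nuclear and cytoplasmic fractions of MDA-MB-453 cells were made with a 3′ end kit and read as 100 base single-end reads, per the labels' protocols. The submitters' processing notes name bcl2fastq, Trimmomatic 0.39, HISAT2, HTSeq and DESeq2, and as builds GRCh37, hg19 and dm3. The selection of T>C reads, and their rate in unlabelled cells, are not given in the sources used here. The deposited values are a signal: gene read counts that the authors divided by 1 size factor per library, scaled on ERCC spike-in RNA. They are whole multiples of 1 step per library in 100% of values (tolerance 0.001 reads), and this gave back the whole reads behind each value. The step ran from 0.374 to 0.951 in cytoplasm and from 0.670 to 2.24 in nuclei, so a level of this size is 1 read. No library pair held identical values.

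The members and gene lists were chosen with earlier results of these data known. Values were log2 transformed after adding 1 and fitted with limma-trend (limma 3.58.1, R 4.3.3), with 1 fit per fraction and table over 14 libraries, and 1 over all 28 libraries for effects that span both fractions. Prior degrees of freedom were 5.52 and 21.1 in cytoplasm (all and T>C reads), and 75.4 and infinite in nuclei, beside 9 residual. Nuclear T>C p-values therefore hold no part of a gene's own spread. Genes had to reach 10 in 2 or more libraries in the all-read table, or 5 in the T>C table. Fold changes on this scale understate low genes. The T>C share was fitted as the difference of the log2 values, in which the scaling cancels only where levels are well above the added 1. P-values were adjusted by Benjamini-Hochberg over all genes in each comparison, with a threshold of 0.05. The counting intervals are 95% intervals of the ratio of reads. Named are 12 members in each comparison (POLR1B, NOP56, FBL, DKC1, NCL, NPM1, RRP9, UTP20, BYSL, PES1, RRS1 and DDX21, by name or within counts) and at most 8 passing members with the smallest p. Values per library are for the members that passed most often in cytoplasm and for NPM1, NCL, FBL and POLR1B.

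Alternatives were a pseudocount of 5, no filter, median-ratio scaling, a block for the replicate number or for the run of library numbers, edgeR 4.0.16 quasi-likelihood tests on the recovered reads, leaving out each library, and, chosen after seeing the data, leaving out run 4. The titles carry 4 runs of library numbers: run 4 holds DMSO and JQ1 replicate 3, run 3 holds neither of these groups, and run 1 holds no IBET151 library. Same-numbered libraries were taken as paired where, in each of 3 pairs, their deviations from the group means correlated above 0.1. This held in all reads for JQ1, JQ1-VHL and IBET151-VHL with DMSO, in cytoplasm (lowest r 0.264, 0.203 and 0.359) and in nuclei (0.315, 0.220 and 0.282), for the VHL compounds with JQ1, for JQ1-VHL with IBET151-VHL, and for DMSO nuclei with DMSO cytoplasm (0.105). In T>C reads it held for JQ1 and DMSO nuclei (0.234), and IBET151 has 2 libraries. The fits were also run on simulated counts, in which few genes changed, in both directions, and replicates had equal means. That setting lacks the broad decrease and the replicate differences of these data, so it does not test the fits under them. Promoters are RefSeq sequences of GRCh38.p14, matched by symbol, and no coordinate of the tables was used. NOLC1, NOP58, RRP12, RRP1B and RRS1 had no promoter entry. Figures were drawn with matplotlib 3.10.9 in Python 3.11.15. A further marker on the cell line list is not reported here.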

Additional observations from a re-analysis of the deposited data

Results flagged for a closer look

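For 9 results the interaction term of limma over all 28 libraries, the T>C change in the nucleus minus that in the cytoplasm, passed. With JQ1-VHL these were RRP12 at -3.68 and RRS1 at 3.05 on the log2 scale, as nuclear minus cytoplasmic change. With IBET151-VHL they were RRP12 at -5.68, UTP15 at -3.99, UTP20 at -3.67, WDR12 at -3.48, RRP9 at -2.90, BYSL at -2.78 and NOP14 at -2.72. RRP12, UTP15, WDR12 and UTP20 were under the minimum of the cytoplasmic fit, with 0, 6, 11 and 24 T>C reads over the cytoplasmic DMSO libraries, so that a cytoplasmic decrease of the nuclear size was not detectable at this depth. In the cytoplasm RRS1 had 0 T>C reads with JQ1-VHL against 410 with DMSO, and BYSL and NOP14 had 0 with IBET151-VHL against 38 and 71 with DMSO, so that the size of their interactions depends on the pseudocount. Only RRP9 met the cytoplasmic minimum and had reads there with the compound, 13 with IBET151-VHL against 21 with DMSO. In the nucleus it had 4 T>C reads with IBET151-VHL against 92 with DMSO, so the size of its interaction depends on the pseudocount too. Nuclear T>C reads with IBET151-VHL were 5 in RRP12, 4 in UTP15, 2 in UTP20, 6 in WDR12, 0 in BYSL and 3 in NOP14. By edgeR 0 members passed for JQ1-VHL and 1 for IBET151-VHL. Among groups of 4 or more libraries there were none to search for single outlying samples, since each group has 2 or 3.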

How the results depend on the processing

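Limits: each group has 2 or 3 libraries, cytoplasmic T>C values of the members rest on 69 to 1563 reads per library, and the labels give no dose. Median-ratio scaling raised the median of all genes with JQ1-VHL and IBET151-VHL to -0.88 and -1.26 in cytoplasmic T>C reads (with ERCC scaling -2.42 and -2.89) and to -0.29 and -0.54 in nuclear T>C reads (-1.92 and -3.12). The causes of the differences below were not tested.

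Counts of members that passed are given with each compound named. The shares of all genes in the results belong to the fits without these alternatives and cannot be set beside these counts. The counts therefore do not set the members apart from other genes. In cytoplasmic all reads the run block gave 6 (JQ1), 16 (JQ1-VHL) and 17 (IBET151-VHL), median-ratio scaling 5 (JQ1-VHL) and 3 (IBET151), and leaving out run 4 gave 3 (IBET151). JQ1-VHL against JQ1 gave 1 under median-ratio scaling, the replicate block, the run block and without run 4, and IBET151-VHL against IBET151 gave 2 and 3 under the replicate and the run block. In cytoplasmic T>C reads JQ1 gave 20 with a pseudocount of 5, 6 with no filter, 0 under median-ratio scaling, 6 by edgeR and 3 without run 4. IBET151 gave 6, 2 and 0 in the first 3 of these, and 2 under the run block and without run 4. Median-ratio scaling gave 7 (JQ1-VHL), 13 (IBET151-VHL), 1 (JQ1-VHL against JQ1), 6 (IBET151-VHL against IBET151) and 1 (JQ1-VHL against IBET151-VHL, as did the run block). For the T>C share a pseudocount of 5 gave 10 (JQ1) and 2 (IBET151), no filter 1 (IBET151), and leaving out run 4 gave 0 (JQ1).

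In nuclear all reads the replicate block gave 4 (JQ1), 11 (JQ1-VHL), 2 higher (IBET151), 24 (IBET151-VHL) and 34 (IBET151-VHL against IBET151, where the numbers do not pair), and the run block 20, 23, 13, 31 and 6. Median-ratio scaling gave 1 (JQ1-VHL) and 1 (IBET151-VHL), as did a pseudocount of 5 and edgeR for IBET151-VHL. In nuclear T>C reads JQ1 gave 1 with a pseudocount of 5 and 4 under the run block, IBET151 gave 1 under the run block, and median-ratio scaling gave 2 (JQ1-VHL), 13 (IBET151-VHL) and 7 (IBET151-VHL against IBET151). JQ1-VHL against JQ1 gave 0 under median-ratio scaling, 13 under the replicate block, 31 under the run block and 1 without run 4. For DMSO nuclei against cytoplasm, all reads gave 21 under median-ratio scaling, 11 under each block, 10 by edgeR and 1 without run 4, and T>C reads gave 6 under median-ratio scaling. The T>C interaction gave 4, 1 and 0 for JQ1-VHL and 19, 3 and 1 for IBET151-VHL with a pseudocount of 5, median-ratio scaling and edgeR. Other counts stayed within 1.5 times under the replicate block.

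Under median-ratio scaling these members turned sign: NCL at 0.15 (JQ1-VHL, nuclear T>C), NOP56 at 0.41, NCL at 0.73 and NPM1 at 0.74 (IBET151-VHL, nuclear T>C), NOP56 at 0.18, NCL at 0.46, DDX21 at 0.13 and NPM1 at 0.79 (the same reads against IBET151), PES1 at -0.65, BYSL at -0.80, RRP9 at -0.84, NCL at -0.87 and DKC1 at -0.77 (DMSO nuclei against cytoplasm, all reads), FBL at -0.44, BYSL at -0.32, RRP9 at -0.11, NCL at -0.81, DDX21 at -0.80, RRS1 at -1.76 and NPM1 at -0.85 (the same, T>C), and NOP14 at 0.61 and BYSL at 0.32 (IBET151-VHL interaction).

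Leaving out each library gave these ranges. In cytoplasmic all reads: 1 to 3 (JQ1), 2 to 8 (JQ1-VHL), 0 to 2 (IBET151), 6 to 9 (IBET151-VHL) and 0 in all 4 pairs. In cytoplasmic T>C reads: 3 to 10 (JQ1), 26 to 27 (JQ1-VHL), 0 to 1 (IBET151), 26 to 28 (IBET151-VHL), 7 to 16 (JQ1-VHL against JQ1), 16 to 22 (IBET151-VHL against IBET151), 0 to 1 (JQ1-VHL against IBET151-VHL) and 0 (JQ1 against IBET151). In the T>C share: 2 to 5, 24 to 25, 0 and 26 to 27 with JQ1, JQ1-VHL, IBET151 and IBET151-VHL. In nuclear all reads: 0 throughout, except 1 for IBET151-VHL without DMSO replicate 1 or its own replicate 2. In nuclear T>C reads: 0 (JQ1), 11 to 37 (JQ1-VHL), 0 (IBET151), 35 to 37 (IBET151-VHL), 0 to 6 (JQ1-VHL against JQ1) and 30 to 36 (IBET151-VHL against IBET151). For DMSO nuclei against cytoplasm: 5 to 14 (all reads) and 34 to 37 (T>C). For the interaction: 0 to 5 (JQ1-VHL) and 3 to 7 (IBET151-VHL) in T>C reads, and 0 otherwise. Where this left IBET151 with 1 library, its spread was taken from the other groups.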
